A study of Homo sapiens with 18 samples.

Results

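The comparison described here is that of MDA-MB-231 cells exposed to epirubicin at normal oxygen with untreated cells at the same oxygen level, the conditions N epi and N. Its members are 6 of the 18 Affymetrix HG-U133 Plus 2.0 arrays of the series, chosen by their titles, with 3 arrays per condition. MDA-MB-231 is an established human cell line of triple-negative breast cancer with a mesenchymal phenotype. In both conditions the cells were kept for 16 h in medium without serum at 20% oxygen, with 10 µM epirubicin in N epi and no drug in N. The other conditions used below for contrast are H and H epi (1% oxygen, without drug or with 10 µM epirubicin) and N tax (20% oxygen, 50 µM paclitaxel), each with 3 arrays and the same 16 h without serum.

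Epirubicin is an anthracycline that intercalates into DNA and poisons topoisomerase II, the enzyme that passes one DNA duplex through another, so that cleaved complexes and double-strand breaks accumulate. Anthracyclines also evict histones from chromatin and interfere with transcription, and mRNAs with a short lifetime are the first to fall when their synthesis slows. Epirubicin is one of the drugs most used against breast cancer, and the study asked how hypoxia alters the response of breast cancer cells to it and to paclitaxel.

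The labels limit how firmly the arrays can be read. For all 6 arrays numbered 3 in the series, the source name gives another drug than the title, so the array titled N epi 3 carries a source name with paclitaxel and the array titled N 3 one with epirubicin. Titles were followed here, and each result was recomputed from arrays 1 and 2 alone. N array 3 correlated at 0.997 with N array 1 and at 0.892 with N epi array 1. N epi array 3 correlated at 0.993 with N epi array 1 and at 0.895 with N array 1. Between N and N epi, both were thus nearer to the arrays of their own title. N epi array 2 stood apart. Its correlation over the probe sets tested below was 0.975 with N epi array 1 and 0.974 with N epi array 3, whereas arrays 1 and 3 correlated at 0.993 with each other and the N arrays at 0.996 to 0.997. Results are therefore also given without it. Most markers of the line were present on every array, but so were most luminal markers. VIM, CD44, EGFR, AXL, CAV1, MSN, LGALS1 and ANXA1 were present on 6 of 6 arrays, with VIM at 15.55 to 15.71. CDH1, FOXA1 and PGR, which mark luminal breast cells, and ALB, APOB and FGB, which mark hepatocytes, were under the presence threshold on all 6. Of 11 markers of this line 10 were present on 6 arrays, and of 12 luminal markers 8. These 8 were ERBB2, ERBB3, GATA3, KRT8, KRT18, KRT19, XBP1 and SPDEF, with KRT18 at 14.09 to 14.88. Of 11 hepatocyte markers 3 (APOA1, TTR and SERPINA1) were over the presence threshold on 6 arrays and 7 on none. APOA1 read 3.344 on every N array and on N epi arrays 1 and 2, and 3.527 on N epi array 3. TTR read 3.735 on every N array and on N epi array 1, and 3.745 and 3.929 on N epi arrays 2 and 3. Such identical values do not show that APOA1 or TTR transcripts were detected. SERPINA1 read 7.876 to 8.779. SPARC, another mesenchymal marker, was also under the presence threshold on all 6.

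Signals are log2 values after GC-RMA normalization, and the 3 values given for a condition are those of arrays 1, 2 and 3 in that order. A probe set was tested when its signal was over 3.14 (8.84 on the linear scale, the presence threshold of the study) on at least 2 of the 3 arrays of N or of N epi, which kept 23659 of 54613 probe sets. Changes are differences of log2 means, N epi minus N, so that -1 corresponds to a 2-fold lower signal, with the standard error (SE) and the Benjamini-Hochberg adjusted p of limma fitted to all 18 arrays. For gene lists, each of 11097 named genes tested is given by whichever of its tested probe sets had the brightest mean.

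Epirubicin changed most of the measured transcriptome. Of 23659 probe sets, 16064 (67.9%) passed an adjusted p under 0.05, 7918 higher (33.5%) and 8146 lower (34.4%) in N epi. Large changes were mostly falls. At least 4-fold changes were counted for 2245 lower and 149 higher probe sets, and at least 16-fold changes for 238 lower and 1 higher. Signals present on the 3 N arrays were absent from the 3 N epi arrays for 488 probe sets, and the opposite held for 223. Of the named genes, 7792 (70.2%) passed the test, 3632 higher (32.7%) and 4160 lower (37.5%), with a median change of -0.01 over all of them. Counts of rises and falls in the gene lists below are to be read against these shares. The arrays of both conditions did not overlap for 36.2% of named genes in the higher and 39.3% in the lower direction, or for 36.8% and 36.6% of probe sets. With arrays 1 and 2 alone 12664 probe sets passed, and without N epi array 2 15864, while 7705 of 11047 named genes (69.7%) passed without that array. Grouping the arrays numbered 3 by source name left 0 called probe sets with limma, and 626 of 23454 with an unadjusted p under 0.05.

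The balance of rises and falls depended on the scale. The bacterial poly-A control transcripts that are added to the RNA before labelling averaged 7.77 to 8.27 on the N arrays and 8.56 to 9.05 on the N epi arrays, a difference of 0.80 log2 units. The hybridization controls, which are added after labelling, were 0.32 higher in N epi, the difference between the 3′ and 5′ probe sets of ACTB changed by -0.21 and the Alu repeat control changed by -0.52. Their part in the results was not tested. When each array was centred on these controls, the median change of all tested probe sets moved from 0.02 to -0.78, 553 probe sets were higher and 13039 lower, and rises made up 4.07% of the calls in place of 49.3%. Quantile normalization and centring on the median moved the median change to 0.22 and 0.30, and the share of rises to 60.4% and 64.1%. A higher level below is therefore a level relative to the other transcripts. The poly-A controls were added to total RNA after its extraction, so they measure neither the number of cells nor the RNA per cell.

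**Figure D1:**
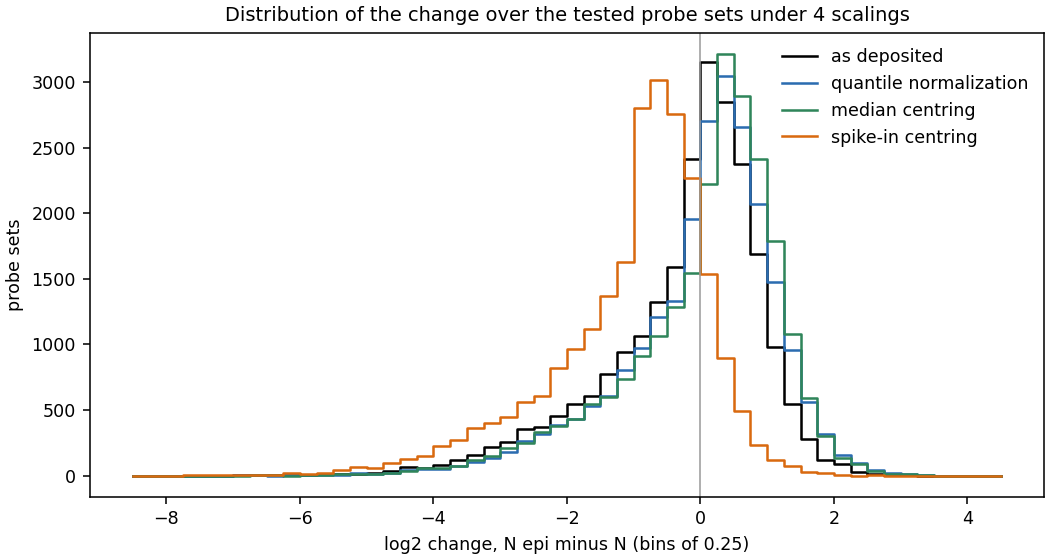
Number of probe sets (vertical axis) by log2 change, N epi minus N (horizontal axis, bins of 0.25), for the 23659 tested probe sets under the deposited scale and 3 other scalings. The left tail of falls is longer than the right tail of rises under each scaling, and centring on the spiked controls shifts the median to -0.78.

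The largest changes on N epi arrays 1 and 3 had the same sign on array 2 for most probe sets. These sets were chosen by arrays 1 and 3, which by itself favours smaller differences on array 2, so the sizes are a description. Of 2655 probe sets at least 4-fold lower without array 2, 97.8% were also lower on it, and for 86.8% its difference from N was smaller than on both other arrays, with a median of -1.86 against -2.92 for the mean of arrays 1 and 3. Of 2448 probe sets at least 2-fold higher, 99.3% were also higher on it, with a median of 1.05 against 1.29. The cause was not tested.

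**Figure D2:**
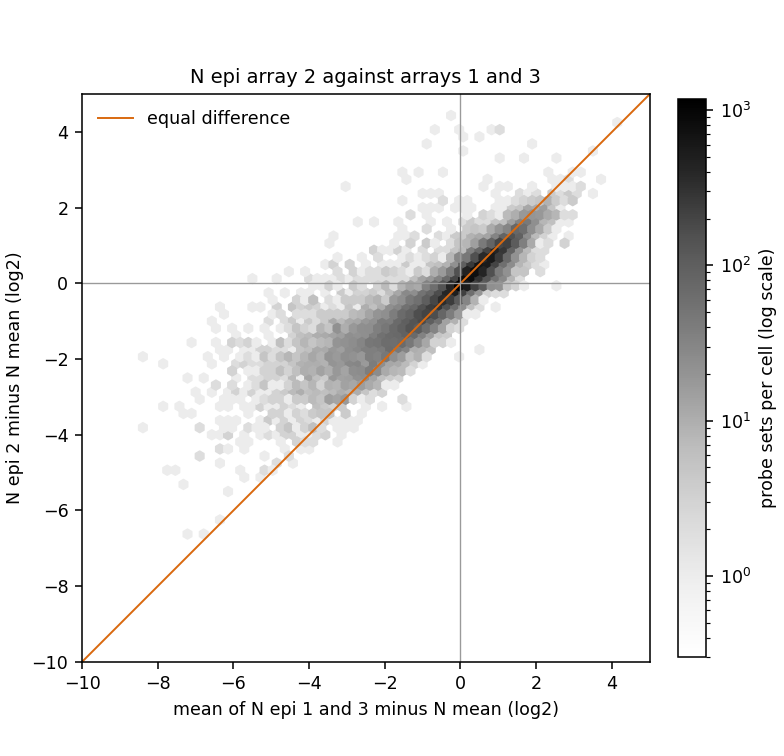
Difference from the N mean on N epi array 2 (vertical axis, log2) against the mean of N epi arrays 1 and 3 (horizontal axis, log2) for all tested probe sets, with the shade giving the number of probe sets per cell on a log scale. Most strongly lowered probe sets lie above the line of equal difference, which means that array 2 was nearer to N.

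Feedback inhibitors of growth factor signalling had the lowest median of the 29 gene lists plotted. Of 14 tested genes of MAP kinase phosphatases and of Sprouty and SPRED proteins, 11 fell, none rose, and the median change was -3.62, against -0.01 for all named genes. The median difference from N was -5.02, -1.21 and -4.85 on the 3 N epi arrays, and the median was -4.94 without N epi array 2 and -3.07 with arrays 1 and 2 alone. ERK kinases switch these genes on, and their products then switch the pathway off. DUSP4, a nuclear phosphatase of ERK and JNK, read 13.11, 13.26 and 13.25 in N and 5.42, 8.29 and 5.42 in N epi, a change of -6.83 (SE 0.52, adjusted p = 4.6e-08). DUSP6, its cytoplasmic counterpart for ERK, read 13.44, 13.13 and 13.45 in N and 5.99, 10.12 and 5.93 in N epi, a change of -5.99 (SE 0.74, adjusted p = 5e-06). N lay above N epi on every array for both genes, as their choice required, and N epi array 2 kept an intermediate level. DUSP5 read 10.84, 11.47 and 11.14 in N and 3.87, 10.47 and 5.5 in N epi, a change of -4.53 (SE 1.09, adjusted p = 0.0019), and did not pass with arrays 1 and 2 alone (adjusted p = 0.07) or with the 6 arrays of N and N epi fitted alone (adjusted p = 0.058). Among the Sprouty genes, whose products block receptor tyrosine kinase signalling upstream of RAF, SPRY1 read 10.32, 10.35 and 10.79 in N and 3.15, 5.19 and 3.18 in N epi, a change of -6.65 (SE 0.41, adjusted p = 6.8e-09). SPRY4 read 10.62, 10.67 and 11.21 in N and 3.36, 8.66 and 2.46 in N epi, a change of -6.0 (SE 1.06, adjusted p = 0.00014). SPRY2 read 10.63, 10.96 and 10.69 in N and 4.99, 8.66 and 4.97 in N epi, a change of -4.55 (SE 0.67, adjusted p = 2.9e-05). SPRY1 came down to the presence threshold on N epi arrays 1 and 3, and SPRY4 did so on array 3, which leaves a change of -5.78 for SPRY4 when signals under the threshold are raised to it. Without N epi array 2 the changes were -7.78 for DUSP4, -7.38 for DUSP6, -6.46 for DUSP5, -7.32 for SPRY1, -5.78 for SPRY2 and -7.92 for SPRY4. The adaptor gene ERRFI1, whose product inhibits the EGF receptor itself, fell too, from 13.34, 13.62 and 13.41 to 9.56, 11.58 and 9.40 (log2 change -3.27, SE 0.39, adjusted p = 3.7e-06), and EGFR read 12.75, 12.75 and 12.73 in N and 11.76, 12.02 and 12.01 in N epi, a change of -0.82 (SE 0.13, adjusted p = 5e-05).

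Because these genes fell together, the 250 bases before their annotated start are shown for DUSP6 and SPRY4, as RefSeq gives them on GRCh38.p14 (DUSP6, chr12:89352502-89352751, minus strand; SPRY4, chr5:142324248-142324497, minus strand), 5′ to 3′, with motif matches in capitals. The motifs searched on both strands, with the share of 27305 RefSeq promoter windows that hold them, were the TATA box TATAAA (11.1%), the CCAAT box CCAAT (33.0%), the cAMP response element TGACGTCA (1.77%) and its core TGACG (21.7%), which the full element contains, the AP-1 site TGANTCA (6.60%), the E-box CACGTG (6.49%), the E2F sites TTTGGCGC (0.553%) and TTTCCCGC (1.42%), the GC box GGGCGG (42.3%) and the ETS site CCGGAAGT (3.64%).
DUSP6: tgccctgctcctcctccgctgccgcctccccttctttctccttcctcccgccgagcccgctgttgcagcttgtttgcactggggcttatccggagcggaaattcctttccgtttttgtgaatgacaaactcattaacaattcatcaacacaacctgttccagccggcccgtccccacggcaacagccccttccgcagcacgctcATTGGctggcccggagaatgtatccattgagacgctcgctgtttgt
SPRY4: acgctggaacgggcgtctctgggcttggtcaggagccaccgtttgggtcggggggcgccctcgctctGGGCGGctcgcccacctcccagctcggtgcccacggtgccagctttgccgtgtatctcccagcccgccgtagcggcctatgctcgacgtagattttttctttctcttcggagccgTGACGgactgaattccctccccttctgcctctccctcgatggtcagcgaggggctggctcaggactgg
DUSP6 held 1 CCAAT box and SPRY4 1 core of the cAMP response element and 1 GC box, so they shared none of these motifs.

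Immediate early genes, which encode short-lived regulators that answer to growth signals within minutes, fell as a group. Of 24 tested, 17 fell and 2 rose, with a median of -3.01. The median difference from N was -4.04, -0.51 and -3.96 on the 3 N epi arrays. Without N epi array 2, 19 fell and 2 rose with a median of -3.91, and with arrays 1 and 2 alone 12 fell and 2 rose with a median of -2.44. MYC, the growth-promoting transcription factor, read 11.33, 11.76 and 11.17 in N and 5.90, 9.87 and 5.08 in N epi, a change of -4.47 (SE 0.78, adjusted p = 0.00014). JUN, a subunit of AP-1, read 11.23, 11.38 and 11.23 in N and 6.37, 9.31 and 6.02 in N epi, a change of -4.05 (SE 0.56, adjusted p = 1.6e-05). For both, arrays 1 and 3 dropped to about the same level and array 2 stayed in between. CCN1 and CCN2 are matricellular proteins that are also targets of YAP and TEAD. CCN1 read 13.43, 13.45 and 13.35 in N and 7.38, 9.72 and 7.44 in N epi, a change of -5.23 (SE 0.42, adjusted p = 8.1e-08). CCN2 read 12.63, 12.39 and 12.54 in N and 7.73, 9.12 and 7.52 in N epi, a change of -4.40 (SE 0.29, adjusted p = 1.4e-08). IER3, an early response gene that modulates survival, read 14.59, 14.83 and 14.53 in N and 8.42, 12.88 and 8.26 in N epi, a change of -4.79 (SE 0.81, adjusted p = 9.5e-05). IER2 read 12.42, 12.41 and 12.48 in N and 7.49, 9.82 and 6.59 in N epi, a change of -4.47 (SE 0.62, adjusted p = 1.5e-05). Without N epi array 2 the changes were -5.93 for MYC, -5.09 for JUN, -6.0 for CCN1, -4.90 for CCN2, -6.30 for IER3 and -5.40 for IER2. AMOTL2, another target of YAP and TEAD, fell from 9.12, 9.73 and 9.24 to 4.29, 7.61 and 3.71 (log2 change -4.16, SE 0.65, adjusted p = 4.5e-05), and of 18 tested genes of YAP, TEAD and their targets 11 fell and 2 rose, with a median of -0.77. The regulators WWTR1 (-1.11), TEAD1 (-0.81) and TEAD4 (-0.73) are among the 11, and YAP1 did not pass (-0.10).

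FOSB and ATF3 rose. FOSB, named here after its values were seen, read 5.31, 5.51 and 5.45 in N and 6.54, 9.45 and 6.38 in N epi, a change of 2.04 (SE 0.57, adjusted p = 0.005). ATF3, a stress-induced factor of the same leucine zipper class, read 6.64, 7.40 and 6.91 in N and 8.37, 10.27 and 7.72 in N epi, a change of 1.80 (SE 0.47, adjusted p = 0.0033). Both were higher on every N epi array than on any N array, and N epi array 2 was the highest. The rises came to 1.04 and 1.06 without N epi array 2, and neither passed when the 6 arrays of N and N epi were fitted alone (adjusted p = 0.080 and 0.060). FOS read 4.11, 4.09 and 4.39 in N and 3.95, 6.01 and 2.74 in N epi (log2 change 0.04, adjusted p = 0.96) and EGR1 9.58, 10.04 and 9.34 in N and 9.38, 11.99 and 8.38 in N epi (log2 change 0.27, adjusted p = 0.75). For these last genes N epi array 2 was above all N arrays while array 3 was below them, so the conditions overlapped. Another EGR1 probe set was higher by 1.43 and passed (adjusted p = 0.020).

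The upstream windows of JUN, which fell, and FOSB, which rose, are given as a contrast within one family (GRCh38.p14, JUN, chr1:58784048-58784297, minus strand; FOSB, chr19:45467746-45467995, plus strand).
JUN: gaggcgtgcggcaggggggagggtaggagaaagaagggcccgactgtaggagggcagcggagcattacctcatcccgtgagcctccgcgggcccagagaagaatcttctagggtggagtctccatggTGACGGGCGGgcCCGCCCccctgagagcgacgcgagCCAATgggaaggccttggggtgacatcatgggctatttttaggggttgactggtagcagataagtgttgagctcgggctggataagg
FOSB: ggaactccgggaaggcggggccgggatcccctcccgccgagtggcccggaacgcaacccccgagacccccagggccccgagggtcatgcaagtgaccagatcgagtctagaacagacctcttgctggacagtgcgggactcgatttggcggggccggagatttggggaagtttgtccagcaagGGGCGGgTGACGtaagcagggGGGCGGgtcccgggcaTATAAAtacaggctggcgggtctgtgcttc
JUN held 1 CCAAT box, 1 core of the cAMP response element and 2 GC boxes, and FOSB 1 TATA box, 1 such core and 2 GC boxes.

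The 12 named genes with the deepest falls, DUSP4, DUSP6, SPRY1 and SPRY4 among them, also included regulators of other pathways. SHROOM2, which encodes an actin-binding protein, read 9.12, 9.13 and 9.35 in N and 2.24, 2.47 and 2.57 in N epi, at least 66.6-fold lower (adjusted p = 1e-11), and ADAMTS15, a secreted metalloproteinase gene, 8.52, 8.48 and 8.62 in N and 2.23, 2.35 and 2.35 in N epi, at least 42.2-fold lower (adjusted p = 5.7e-11). Both were under the presence threshold on all 3 N epi arrays, array 2 included. TRIB2 and TRIB1 are pseudokinase scaffolds for ubiquitin ligases. TRIB2 read 8.56, 8.67 and 8.85 in N and 2.45, 3.18 and 2.45 in N epi, a change of -6.0 (SE 0.17, adjusted p = 1e-11). TRIB1 read 10.05, 9.89 and 10.29 in N and 2.83, 7.56 and 2.71 in N epi, a change of -5.71 (SE 0.86, adjusted p = 3.4e-05). Both were present on 1 of 3 N epi arrays, and with signals under the threshold raised to it their changes were -5.54 and -5.46. DDIT4, an inhibitor of mTORC1, had the widest spread among them, with 12.19, 12.40 and 12.22 in N and 3.86, 10.28 and 3.84 in N epi, a change of -6.27 (SE 1.12, adjusted p = 0.00016). Its N epi array 2 was only about 2 log2 units under the N arrays and its change without that array was -8.42. BHLHE40, a transcriptional repressor present on 2 of 3 N epi arrays, read 10.68, 10.47 and 10.86 in N and 4.01, 7.30 and 2.83 in N epi, a change of -5.96 (SE 0.71, adjusted p = 3.5e-06). IRF2BPL read 12.996, 12.98 and 13.04 in N and 5.97, 9.61 and 6.0 in N epi, a change of -5.82 (SE 0.65, adjusted p = 2e-06). PRAG1, a pseudokinase gene, read 12.15, 12.24 and 12.16 in N and 5.92, 7.76 and 5.81 in N epi, a change of -5.68 (SE 0.39, adjusted p = 1.7e-08). The phosphate transporter gene SLC20A1 read 14.14, 14.01 and 14.26 in N and 10.93, 11.002 and 11.09 in N epi on its brightest probe set, a change of -3.13 (SE 0.15, adjusted p = 6e-10), and its other probe set changed by -7.03, the largest fall among the tested probe sets.

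**Figure D3:**
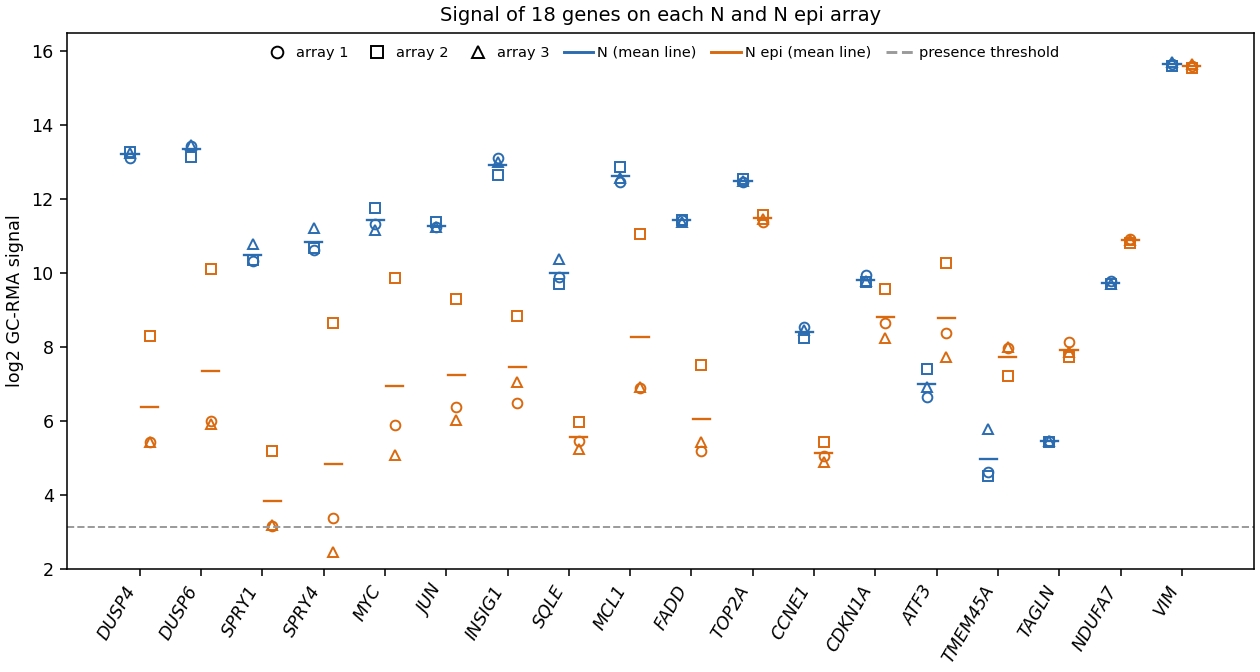
Log2 GC-RMA signal of 18 genes on the 3 N and 3 N epi arrays, with a horizontal line for each mean and a dashed line at the presence threshold of 3.14. For DUSP4, DUSP6, SPRY4, MYC, JUN, MCL1 and FADD N epi array 2 lies between N and the other N epi arrays, for TOP2A, CCNE1 and TAGLN the N epi arrays lie together, and VIM differs little between the conditions.

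Genes of sterol and fatty acid synthesis fell on all N epi arrays alike. Of 21 tested, 19 fell and 1 rose, with a median of -1.37 and a median difference from N of -1.22, -1.47 and -1.28 on arrays 1, 2 and 3. The count was the same without N epi array 2, and 17 fell with arrays 1 and 2 alone. INSIG1, which holds the SREBP regulators of the pathway in the endoplasmic reticulum, read 13.12, 12.65 and 12.99 in N and 6.48, 8.83 and 7.06 in N epi, a change of -5.46 (SE 0.46, adjusted p = 1.4e-07). SQLE, squalene epoxidase, read 9.90, 9.71 and 10.39 in N and 5.46, 5.98 and 5.23 in N epi, a change of -4.44 (SE 0.34, adjusted p = 4.8e-08). HMGCS1, the cytosolic HMG-CoA synthase, read 9.06, 8.69 and 9.27 in N and 4.56, 5.16 and 5.28 in N epi, a change of -4.01 (SE 0.30, adjusted p = 4.9e-08). IDI1 and MSMO1 are enzymes before and after squalene. IDI1 read 13.77, 13.43 and 13.91 in N and 11.02, 11.37 and 11.32 in N epi, a change of -2.47 (SE 0.16, adjusted p = 1.2e-08). MSMO1 read 13.51, 13.17 and 13.60 in N and 10.79, 10.74 and 10.92 in N epi, a change of -2.61 (SE 0.17, adjusted p = 1.3e-08). SCD, the stearoyl-CoA desaturase, read 13.63, 13.46 and 13.95 in N and 11.64, 11.27 and 11.97 in N epi, a change of -2.05 (SE 0.23, adjusted p = 1.9e-06). N and N epi did not overlap for any of these 6 genes, as the rule for naming list members required. In the whole list, the arrays of 18 of 21 genes did not overlap in the lower direction and those of 1 in the higher. The shares over all named genes were 39.3% and 36.2%. A further IDI1 probe set with a lower signal rose by 1.29 (adjusted p = 5.3e-06).

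INSIG1 and HMGCS1 had the deepest and the third deepest falls of the list, and their upstream windows follow (GRCh38.p14, INSIG1, chr7:155297628-155297877, plus strand; HMGCS1, chr5:43313413-43313662, minus strand).
INSIG1: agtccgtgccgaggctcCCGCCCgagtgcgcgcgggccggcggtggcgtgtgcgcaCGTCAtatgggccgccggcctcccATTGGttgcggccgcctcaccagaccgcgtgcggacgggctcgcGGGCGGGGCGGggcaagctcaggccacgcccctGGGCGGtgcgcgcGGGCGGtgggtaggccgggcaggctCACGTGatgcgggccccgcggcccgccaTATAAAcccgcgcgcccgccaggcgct
HMGCS1: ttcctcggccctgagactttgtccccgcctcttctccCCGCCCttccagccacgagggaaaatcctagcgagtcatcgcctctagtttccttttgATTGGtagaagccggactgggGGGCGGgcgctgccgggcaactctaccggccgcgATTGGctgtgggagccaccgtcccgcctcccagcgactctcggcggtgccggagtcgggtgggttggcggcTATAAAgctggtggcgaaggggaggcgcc
Both held 1 TATA box, and INSIG1 also 1 CCAAT box, 1 core of the cAMP response element, 1 E-box and 5 GC boxes, against 2 CCAAT boxes and 2 GC boxes in HMGCS1. Among the 72 of the 100 most raised genes with a promoter entry 13.9% held a TATA box, among the 81 of the 100 most lowered 7.41%, and among all 9154 tested genes with an entry 5.04%. The CCAAT box was in 33.3%, 39.5% and 35.7% and the GC box in 70.8%, 66.7% and 68.2% of the same sets.

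Genes of the transcription and chromatin machinery were mostly lower. Of 23 tested genes listed for RNA polymerase II and P-TEFb control 14 fell and 4 rose, with a median of -0.64. The deepest fall of this list was that of MCL1 (-4.35), an inhibitor of apoptosis and not part of the machinery. CCNT1, the cyclin partner of CDK9 in P-TEFb, read 9.22, 9.30 and 9.55 in N and 5.83, 6.83 and 5.21 in N epi, a change of -3.40 (SE 0.27, adjusted p = 7.2e-08). CDK7, the kinase of TFIIH, read 11.23, 11.02 and 11.26 in N and 7.92, 9.70 and 7.95 in N epi, a change of -2.65 (SE 0.37, adjusted p = 1.5e-05). HEXIM1 and MEPCE keep P-TEFb inactive in the 7SK particle. HEXIM1 read 11.38, 11.08 and 11.39 in N and 8.05, 9.75 and 8.05 in N epi, a change of -2.67 (SE 0.32, adjusted p = 4.1e-06). MEPCE read 10.64, 10.71 and 10.71 in N and 7.33, 9.56 and 7.36 in N epi, a change of -2.61 (SE 0.40, adjusted p = 4.4e-05). All 4 were lower on each N epi array than on any N array, as the rule for naming list members required. Of 27 chromatin genes, most of them for enzymes that write or erase methylation and acetylation of histone H3, 21 fell and 4 rose, with a median of -1.78. BRD2, a reader of acetylated histones (-2.35), and SMARCA4, a nucleosome remodeller (-0.26), are among the 21. KDM5B, a demethylase of H3K4, read 9.30, 9.49 and 9.73 in N and 4.91, 7.84 and 4.55 in N epi, a change of -3.74 (SE 0.57, adjusted p = 3.9e-05). SETD2, the methyltransferase of H3K36, read 9.44, 9.62 and 9.53 in N and 5.16, 7.58 and 4.70 in N epi, a change of -3.71 (SE 0.48, adjusted p = 8.4e-06). The acetyltransferase gene CREBBP read 9.07, 9.12 and 9.07 in N and 4.56, 7.91 and 4.96 in N epi, a change of -3.27 (SE 0.56, adjusted p = 0.00012). Its paralog EP300 read 6.37, 6.87 and 6.86 in N and 3.18, 5.28 and 3.38 in N epi, a change of -2.75 (SE 0.39, adjusted p = 1.8e-05). Arrays 1 and 3 were again the lowest.

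The zinc finger genes named ZNF, most of them transcriptional regulators, were mostly lower. Of 339 tested, 250 fell, 19 rose and the median was -1.34, with -1.39, -1.02 and -1.48 on the N epi arrays. With arrays 1 and 2 alone 223 fell, and without N epi array 2 251. ZNF264 read 7.96, 8.34 and 8.44 in N and 2.51, 5.52 and 2.67 in N epi, a change of -4.68 (SE 0.53, adjusted p = 2.3e-06), or -4.31 with its 2 arrays under the presence threshold raised to it. ZNF398 read 9.03, 8.81 and 8.99 in N and 3.71, 5.75 and 3.71 in N epi, a change of -4.55 (SE 0.37, adjusted p = 8.5e-08). The median span of a gene on the genome, by RefSeq, was 32.4 kb for 1245 called genes at least 4-fold lower. It was 39.2 kb for those 2- to 4-fold lower and 41.4 kb for those under 2-fold lower. Genes not past the test had 29.2 kb, called genes under 2-fold higher 25.9 kb and 756 called genes at least 2-fold higher 21.1 kb. Over all named genes tested the median was 30.0 kb, and these spans are given as a description.

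**Figure D4:**
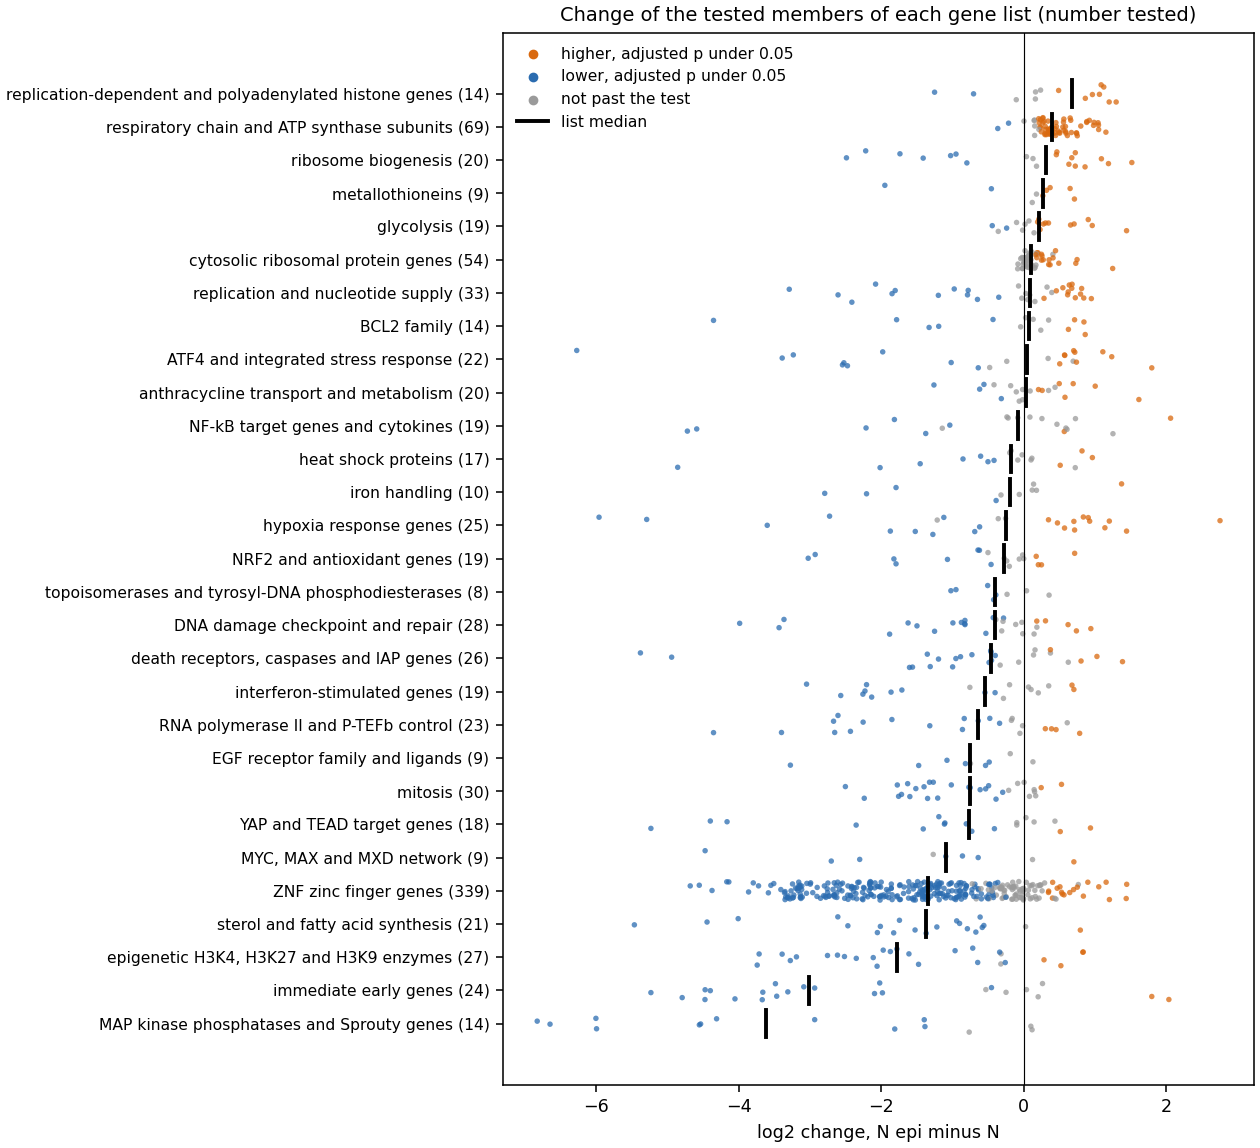
Log2 change, N epi minus N (horizontal axis), of each tested member of 29 gene lists, with the number tested in brackets and the list median as a black bar. Orange and blue points passed an adjusted p under 0.05 higher or lower, grey points did not. The lists at the bottom, with medians of -3.62 and -3.01, hold the MAP kinase phosphatase and Sprouty genes and the immediate early genes.

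Topoisomerase II has 2 genes, and TOP2A, that of dividing cells, fell. It read 12.46, 12.53 and 12.48 in N and 11.38, 11.57 and 11.46 in N epi, a change of -1.02 (SE 0.11, adjusted p = 1.9e-06), and 1 of its other probe sets did not pass (log2 change -0.25, adjusted p = 0.30). TOP2B, the form expressed in all cells, read 10.09, 10.18 and 10.21 in N and 9.87, 10.02 and 9.89 in N epi (log2 change -0.23, SE 0.12, adjusted p = 0.09). TOP2B passed with the 6 arrays fitted alone (-0.23, adjusted p = 0.040), with array weights (-0.26, adjusted p = 0.042) and on the scale of the spiked controls (-1.03, adjusted p = 0.0024). N lay above N epi for both genes. TOP1 read 12.17, 12.39 and 12.30 in N and 11.65, 12.09 and 11.60 in N epi, a change of -0.50 (SE 0.12, adjusted p = 0.0014), with its other probe set 0.53 higher (adjusted p = 0.028). TDP2, which releases topoisomerase II from DNA ends, read 11.30, 11.09 and 11.09 in N and 10.79, 10.85 and 10.68 in N epi, a change of -0.39 (SE 0.11, adjusted p = 0.0075). Neither TOP1 nor TDP2 passed with arrays 1 and 2 alone (adjusted p = 0.067 and 0.085) or with median centring (adjusted p = 0.066 and 0.37). Of 20 genes of anthracycline transport and metabolism 7 rose (35%, against 32.7% of all named genes) and 4 fell, with a median of 0.04 (-0.76 when centred on the spiked controls). The carbonyl reductases CBR1 and CBR3 reduce anthracyclines to their alcohols. CBR1 read 10.52, 10.31 and 10.46 in N and 9.90, 9.73 and 9.98 in N epi, a change of -0.56 (SE 0.11, adjusted p = 0.00038). CBR3 read 9.79, 9.44 and 9.69 in N and 8.29, 8.60 and 8.25 in N epi, a change of -1.26 (SE 0.17, adjusted p = 1.5e-05). ABCB1, the gene of the efflux pump P-glycoprotein, was under the presence threshold and was not tested.

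Mitotic genes mostly fell, and replication genes rose and fell in shares near those of all named genes. Of 30 mitotic genes, 21 fell and 2 rose, with a median of -0.76. TTK, a spindle checkpoint kinase, read 10.23, 10.28 and 10.35 in N and 7.64, 8.05 and 7.66 in N epi, a change of -2.50 (SE 0.12, adjusted p = 4.9e-10). CENPF, a kinetochore protein, read 11.90, 12.11 and 12.10 in N and 9.80, 9.86 and 9.74 in N epi, a change of -2.24 (SE 0.10, adjusted p = 4e-10). PLK1 and AURKA are the mitotic kinases. PLK1 read 10.46, 10.49 and 10.42 in N and 8.90, 8.69 and 8.46 in N epi, a change of -1.77 (SE 0.19, adjusted p = 1.3e-06). AURKA read 12.94, 13.01 and 12.86 in N and 11.35, 11.46 and 11.12 in N epi, a change of -1.63 (SE 0.11, adjusted p = 1.5e-08), and 1 of its other probe sets did not pass (-0.05, adjusted p = 0.69). CCNB1, the mitotic cyclin, read 13.31, 13.30 and 13.20 in N and 12.04, 11.97 and 11.83 in N epi, a change of -1.32 (SE 0.10, adjusted p = 3e-08). N epi array 2 lay within or near the range of the other N epi arrays for these genes. Of 33 genes of replication and nucleotide supply, 13 rose and 12 fell, with a median of 0.08 (-0.71 when centred on the spiked controls). Their shares were 39.4% and 36.4%, against 32.7% and 37.5% of all named genes. CCNE1, the cyclin of the G1 to S transition, read 8.53, 8.25 and 8.45 in N and 5.04, 5.42 and 4.90 in N epi, a change of -3.29 (SE 0.23, adjusted p = 2.4e-08). CDT1, a licensing factor, read 8.69, 8.37 and 8.55 in N and 5.90, 6.89 and 5.01 in N epi, a change of -2.60 (SE 0.33, adjusted p = 6e-06). MCM10 read 9.91, 9.92 and 9.76 in N and 8.02, 8.36 and 7.80 in N epi, a change of -1.80 (SE 0.25, adjusted p = 1.4e-05). All of these were lower without overlap, which the rule for naming list members required.

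Of 14 tested histone genes 8 rose and 2 fell, with a median of 0.68, a direction that turned to -0.12, with none higher, when the arrays were centred on the spiked controls. H1-2, a linker histone, read 8.43, 8.29 and 8.25 in N and 9.79, 9.32 and 9.75 in N epi, a change of 1.3 (SE 0.19, adjusted p = 3.2e-05). H2AC6 read 7.45, 7.30 and 7.30 in N and 8.46, 8.83 and 8.35 in N epi, a change of 1.2 (SE 0.16, adjusted p = 1.2e-05). Neither passed on that scale (0.50 and 0.41, adjusted p = 0.12 and 0.24). H2AX, the histone variant phosphorylated at double-strand breaks, moved the other way with 13.19, 13.11 and 12.98 in N and 12.03, 11.62 and 11.89 in N epi, a change of -1.25 (SE 0.17, adjusted p = 1.2e-05), and 1 of its other probe sets did not pass (0.11, adjusted p = 0.54).

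More DNA damage genes fell than rose. Of 28 tested checkpoint and repair genes 15 fell and 5 rose, with a median of -0.41. CDKN1A, the cyclin-dependent kinase inhibitor p21, read 9.95, 9.74 and 9.78 in N and 8.64, 9.56 and 8.25 in N epi, a change of -1.0 (SE 0.25, adjusted p = 0.0027). Its N epi array 2 was close to N, the change was -1.37 without that array, and arrays 1 and 2 alone did not pass (adjusted p = 0.083). MDM2, a ubiquitin ligase, read 7.62, 7.67 and 7.46 in N and 6.11, 6.31 and 6.57 in N epi, a change of -1.26 (SE 0.16, adjusted p = 7.3e-06), on its brightest probe set, and another gave 0.08 (adjusted p = 0.80). FAS, the death receptor, read 6.39, 6.61 and 6.80 in N and 4.94, 5.20 and 4.87 in N epi, a change of -1.60 (SE 0.15, adjusted p = 3e-07). CDKN1A, MDM2 and FAS were below N on all 3 N epi arrays. GDF15 and PMAIP1, both stress-induced, did not pass: GDF15 read 5.56, 9.0 and 5.63 in N and 5.39, 9.08 and 6.06 in N epi (log2 change 0.12, adjusted p = 0.92) and PMAIP1 9.67, 9.97 and 9.90 in N and 9.53, 10.21 and 9.68 in N epi (-0.04, adjusted p = 0.83). The second array of each condition was the highest for GDF15.

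Among the repair genes, WEE1, the kinase that holds cells in G2, read 10.44, 10.53 and 10.37 in N and 5.55, 8.66 and 5.18 in N epi, a change of -3.99 (SE 0.60, adjusted p = 3.2e-05). RNF168, a ubiquitin ligase at double-strand breaks, read 9.63, 9.42 and 9.79 in N and 5.87, 6.80 and 5.87 in N epi, a change of -3.43 (SE 0.22, adjusted p = 1.2e-08). PALB2, a partner of the BRCA proteins, read 7.18, 7.68 and 7.58 in N and 3.17, 4.62 and 4.55 in N epi, a change of -3.36 (SE 0.43, adjusted p = 7e-06). BARD1 read 10.24, 10.02 and 10.21 in N and 8.55, 8.49 and 8.94 in N epi, a change of -1.50 (SE 0.16, adjusted p = 1.6e-06). No N epi array reached the N range for any of the 4 genes, which were picked for this among the list members.

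Survival and death genes both contained large falls. MCL1, a short-lived inhibitor of apoptosis, read 12.47, 12.85 and 12.58 in N and 6.88, 11.05 and 6.91 in N epi, a change of -4.35 (SE 0.73, adjusted p = 9.4e-05), and -5.74 without N epi array 2. BCL2L1, which encodes BCL-XL, read 12.85, 12.78 and 12.81 in N and 10.98, 11.17 and 10.95 in N epi, a change of -1.78 (SE 0.12, adjusted p = 1.4e-08), and 1 of its other probe sets did not pass (-0.47, adjusted p = 0.14). Pro-apoptotic BID rose with 9.24, 9.28 and 9.29 in N and 10.04, 10.02 and 10.29 in N epi, a change of 0.85 (SE 0.15, adjusted p = 0.00017), a rise that shrank to 0.05 (adjusted p = 0.90) on the scale of the spiked controls. BCL2 read 4.28, 4.27 and 4.40 in N and 5.36, 4.96 and 5.22 in N epi, a change of 0.86 (SE 0.21, adjusted p = 0.0021), on its brightest probe set, 0.07 (adjusted p = 0.87) on that scale, and -1.03 (adjusted p = 7.9e-05) on its other probe set. Of 14 BCL2 family genes 4 rose and 5 fell, with a median of 0.08 (-0.72 on the scale of the spiked controls). These shares, 28.6% and 35.7%, were near the 32.7% and 37.5% of all named genes. Of 26 genes of death receptors, caspases and their regulators 16 fell and 4 rose, with a median of -0.46. FADD, the adaptor of death receptors, read 11.44, 11.44 and 11.38 in N and 5.18, 7.5 and 5.44 in N epi, a change of -5.38 (SE 0.40, adjusted p = 4.1e-08). TNFRSF1A, the main TNF receptor, read 10.80, 10.73 and 10.98 in N and 4.77, 8.14 and 4.77 in N epi, a change of -4.94 (SE 0.75, adjusted p = 3.4e-05). CASP8 read 8.03, 7.99 and 8.12 in N and 6.4, 6.76 and 6.28 in N epi, a change of -1.56 (SE 0.14, adjusted p = 3e-07), and its other probe set did not pass (-0.16, adjusted p = 0.27). FADD changed by -6.11 and TNFRSF1A by -6.06 without N epi array 2. TNFRSF10D, a decoy receptor for TRAIL, rose with 8.16, 8.15 and 8.44 in N and 9.44, 9.91 and 9.57 in N epi, a change of 1.39 (SE 0.15, adjusted p = 1.2e-06), or 0.59 (adjusted p = 0.082) on the scale of the spiked controls. TNFSF10, which encodes TRAIL, read 6.89, 7.10 and 6.64 in N and 6.50, 7.15 and 6.76 in N epi (log2 change -0.07, adjusted p = 0.86).

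NF-kB target genes differed between the N epi arrays. Of 19 tested, 6 fell (31.6%, against 37.5% of all named genes) and 2 rose. The median was -0.08 (0.25 after quantile normalization and 0.20 with median centring). It came from median differences from the N mean of -0.97, 1.79 and -1.32 on N epi arrays 1, 2 and 3. Without N epi array 2 but with N array 2 kept, 8 fell and none rose, with a median of -1.16. With arrays 1 and 2 alone the median was 0.18. NFKBIA, the inhibitor of NF-kB and its own target, read 10.56, 10.87 and 10.74 in N and 3.92, 9.66 and 4.44 in N epi, a change of -4.72 (SE 1.04, adjusted p = 0.00093), with -6.55 without N epi array 2 and no call with arrays 1 and 2 alone (adjusted p = 0.051). NFKBIZ read 8.59, 8.73 and 8.51 in N and 3.46, 6.26 and 2.34 in N epi, a change of -4.59 (SE 0.64, adjusted p = 1.6e-05), or -4.32 with its array under the threshold raised to it. The cytokine IL6 read 6.78, 9.09 and 6.89 in N and 4.50, 10.14 and 4.69 in N epi (log2 change -1.14, SE 1.15, adjusted p = 0.39), and without N epi array 2 -2.99 (adjusted p = 0.002). That fit kept N array 2, the highest N array for IL6, which by itself makes the fall larger. CXCL8 read 6.98, 12.17 and 7.22 in N and 7.83, 12.46 and 7.87 in N epi (log2 change 0.59, SE 1.28, adjusted p = 0.7). For both, the second array was the highest in N as well as in N epi. IL24 showed the same, with 4.23, 7.15 and 3.98 in N and 6.22, 9.14 and 6.18 in N epi (log2 change 2.06, SE 0.77, adjusted p = 0.028), and did not pass without N epi array 2 (1.08, adjusted p = 0.16), without N array 1 (1.62, adjusted p = 0.11), without N array 3 (1.49, adjusted p = 0.13) or with arrays 1 and 2 alone (1.99, adjusted p = 0.14). These fits hold no replicate block. Each N epi array was above the equally numbered N array for IL24, and its rise passed with the replicate number as a block. SOD2, the mitochondrial superoxide dismutase, rose with 6.44, 6.76 and 5.89 in N and 7.79, 8.49 and 7.66 in N epi, a change of 1.62 (SE 0.28, adjusted p = 0.00012), and IL32 with 4.40, 4.85 and 4.13 in N and 6.11, 8.19 and 6.52 in N epi, a change of 2.48 (SE 0.39, adjusted p = 5.6e-05). N epi array 2 was the highest for both, and N and N epi did not overlap, as the rule for naming them required.

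Of 19 interferon-stimulated genes 10 fell and 2 rose, with a median of -0.54. The median difference from N was -0.77, -0.016 and -0.56 on the 3 N epi arrays, so array 2 had almost none. IRF9, a subunit of the interferon-activated factor ISGF3, read 8.67, 8.72 and 8.68 in N and 5.37, 6.62 and 4.94 in N epi, a change of -3.05 (SE 0.30, adjusted p = 5.9e-07). RIGI, the cytosolic RNA sensor, read 10.01, 10.05 and 10.16 in N and 6.93, 8.57 and 7.02 in N epi, a change of -2.57 (SE 0.33, adjusted p = 6.5e-06). IFIT3, an antiviral effector, read 12.01, 11.92 and 11.72 in N and 9.40, 10.31 and 9.54 in N epi, a change of -2.13 (SE 0.21, adjusted p = 6.7e-07). IFI44 read 8.2, 8.34 and 8.47 in N and 6.32, 6.42 and 6.69 in N epi, a change of -1.86 (SE 0.19, adjusted p = 9.2e-07). The lowest N value exceeded the highest N epi value for all 4, as the rule for naming list members required.

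The stress programmes did not rise as groups. Of 22 genes of ATF4 and the integrated stress response 9 rose and 9 fell, with a median of 0.05 (-0.74 on the scale of the spiked controls). Each share was 40.9%, against 32.7% higher and 37.5% lower among all named genes. TRIB3 read 11.07, 11.57 and 11.21 in N and 6.94, 9.81 and 6.93 in N epi, a change of -3.39 (SE 0.55, adjusted p = 7.1e-05). CHAC1, which degrades glutathione, read 7.31, 7.49 and 7.06 in N and 5.70, 5.22 and 3.51 in N epi, a change of -2.47 (SE 0.49, adjusted p = 0.00041). Of 17 heat shock and cochaperone genes 7 fell (41.2%, against 37.5% of all named genes) and 3 rose, with a median of -0.18 (0.11 with median centring). DNAJB1, the main HSP40 cochaperone, read 12.21, 12.34 and 12.44 in N and 6.87, 8.97 and 6.58 in N epi, a change of -4.86 (SE 0.47, adjusted p = 5.1e-07). BAG3 read 12.73, 12.66 and 12.82 in N and 10.44, 11.20 and 10.52 in N epi, a change of -2.02 (SE 0.16, adjusted p = 9.8e-08). HSPA5, the chaperone BiP of the endoplasmic reticulum, read 13.99, 14.02 and 13.95 in N and 12.87, 13.37 and 13.17 in N epi, a change of -0.85 (SE 0.14, adjusted p = 7.4e-05), with its other probe set at -0.28 (adjusted p = 0.22). Of 19 NRF2 and antioxidant genes 8 fell (42.1%, against the same 37.5%) and 4 rose, with a median of -0.27 (0.01 with median centring). HMOX1, heme oxygenase 1, read 7.46, 7.10 and 7.09 in N and 5.49, 5.71 and 5.08 in N epi, a change of -1.79 (SE 0.26, adjusted p = 2.4e-05). NFE2L2, which encodes NRF2, read 11.52, 11.53 and 11.51 in N and 9.08, 10.75 and 9.26 in N epi, a change of -1.82 (SE 0.30, adjusted p = 8.6e-05). KEAP1, the inhibitor of NRF2, read 10.95, 10.87 and 11.01 in N and 7.93, 8.71 and 7.40 in N epi, a change of -2.93 (SE 0.23, adjusted p = 6e-08). GCLC, the rate-limiting enzyme of glutathione synthesis, read 9.45, 9.35 and 9.42 in N and 5.49, 8.13 and 5.53 in N epi, a change of -3.02 (SE 0.52, adjusted p = 0.00011). N epi was below N on all arrays for each of these, as the rule for naming list members required.

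Iron and oxygen genes gave opposite signs within their lists. Of 10 iron genes 4 fell and 1 rose, with a median of -0.19 (0.09 with median centring). The share of falls, 40%, was near the 37.5% of all named genes. TFRC, the transferrin receptor through which cells take up iron, rose with 12.93, 13.01 and 12.99 in N and 14.37, 14.23 and 14.46 in N epi, a change of 1.37 (SE 0.21, adjusted p = 4.7e-05), or 0.58 (adjusted p = 0.13) on the scale of the spiked controls. SLC40A1, the iron exporter ferroportin, read 5.94, 5.44 and 5.86 in N and 4.15, 3.36 and 3.11 in N epi, a change of -2.21 (SE 0.29, adjusted p = 9.5e-06). BACH1, a heme-sensing repressor, read 7.63, 7.94 and 7.57 in N and 4.19, 6.4 and 4.16 in N epi, a change of -2.79 (SE 0.41, adjusted p = 2.9e-05). Of 25 genes of the hypoxia response and its regulators 12 rose and 10 fell, with a median of -0.25 (0.17 after quantile normalization). Their shares were 48% and 40%, against 32.7% and 37.5% of all named genes. VEGFA, the angiogenic growth factor, read 13.20, 13.28 and 13.21 in N and 8.76, 11.13 and 9.01 in N epi, a change of -3.60 (SE 0.41, adjusted p = 2.4e-06). PFKFB4 read 8.92, 8.73 and 9.27 in N and 3.98, 3.87 and 3.20 in N epi, a change of -5.29 (SE 0.18, adjusted p = 3.2e-11), while its other probe set gave 0.00. ANKRD37 read 7.72, 7.25 and 7.64 in N and 4.07, 6.30 and 4.07 in N epi, a change of -2.72 (SE 0.43, adjusted p = 5.6e-05). PDK1, a kinase that inhibits pyruvate dehydrogenase, rose with 6.76, 6.75 and 6.79 in N and 8.24, 8.13 and 8.26 in N epi. Its change was 1.45 (SE 0.13, adjusted p = 2.5e-07), or 0.65 (adjusted p = 0.052) on the scale of the spiked controls. HIF1A itself read 13.84, 13.91 and 13.91 in N and 13.14, 13.46 and 13.20 in N epi, a change of -0.62 (SE 0.15, adjusted p = 0.0019), and -0.34 (adjusted p = 0.060) with median centring.

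Rises were smaller than falls. The long noncoding RNA SP2-AS1 had the largest rise of the named genes, with 3.22, 4.01 and 3.11 in N and 6.67, 5.85 and 7.09 in N epi, a change of 3.09 (SE 0.32, adjusted p = 1e-06). TFF1, a secreted trefoil peptide, read 3.54, 4.05 and 3.47 in N and 6.66, 6.93 and 5.83 in N epi, a change of 2.79 (SE 0.39, adjusted p = 1.5e-05). TMEM45A, a transmembrane protein gene, read 4.62, 4.50 and 5.79 in N and 7.96, 7.22 and 8.0 in N epi, a change of 2.76 (SE 0.30, adjusted p = 1.7e-06). N epi exceeded N on every array for these 3 genes, as the rule for naming the largest rises required. SCG5, a neuroendocrine chaperone, read 5.74, 5.58 and 6.19 in N and 8.51, 8.15 and 8.96 in N epi, a change of 2.70 (SE 0.43, adjusted p = 5.9e-05). SLC35G1 read 4.04, 4.41 and 3.64 in N and 7.0, 6.21 and 6.86 in N epi, a change of 2.66 (SE 0.26, adjusted p = 5.6e-07). SLAMF7, a surface receptor best known from lymphocytes, read 4.58, 4.91 and 4.14 in N and 7.36, 7.18 and 6.92 in N epi, a change of 2.61 (SE 0.33, adjusted p = 6e-06). CLN6, a protein of the endoplasmic reticulum, read 7.04, 7.13 and 6.85 in N and 9.55, 9.43 and 9.49 in N epi, a change of 2.48 (SE 0.15, adjusted p = 4.8e-09). TAGLN, the actin-binding protein transgelin, read 5.46, 5.44 and 5.46 in N and 8.14, 7.71 and 7.87 in N epi, a change of 2.45 (SE 0.12, adjusted p = 7e-10). LINC01111 and ELAPOR1 went from under the presence threshold to 5.06, 4.79 and 5.66 and 5.41, 4.33 and 5.48, at least 4.08-fold and 3.8-fold higher (adjusted p = 1.5e-06 and 2.1e-06). Rises of these 10 genes passed the test under each scaling, the spiked controls included.

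DLEU2, a long noncoding RNA that hosts miRNAs, gave opposite answers by probe set. Its brightest probe set read 5.24, 5.74 and 5.01 in N and 8.13, 8.14 and 8.07 in N epi, a change of 2.79 (SE 0.25, adjusted p = 2.2e-07), whereas its others changed by -2.65 (adjusted p = 1.7e-06) and -1.72 (adjusted p = 2.0e-06).

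Genes of the respiratory chain and ATP synthase shifted upward together by small steps. Of 69 tested 61 rose and 2 fell, with a median of 0.40 and median differences from N of 0.37, 0.38 and 0.43 on the 3 N epi arrays. With arrays 1 and 2 alone 48 rose and 1 fell, but centred on the spiked controls none rose, 3 fell and the median was -0.40. NDUFA7 and NDUFB7 are subunits of complex I. NDUFA7 read 9.77, 9.70 and 9.70 in N and 10.93, 10.82 and 10.89 in N epi, a change of 1.16 (SE 0.11, adjusted p = 6.3e-07). NDUFB7 read 9.61, 9.66 and 9.61 in N and 10.65, 10.64 and 10.75 in N epi, a change of 1.05 (SE 0.12, adjusted p = 2.9e-06), with its other probe set at 0.51 (adjusted p = 0.12). ATP5F1D, a subunit of the ATP synthase, read 10.97, 10.99 and 11.15 in N and 12.05, 12.04 and 12.17 in N epi, a change of 1.05 (SE 0.13, adjusted p = 4.7e-06). On the scale of the spiked controls these changes were 0.36, 0.26 and 0.25 and did not pass (adjusted p = 0.28, 0.48 and 0.49). Of 54 ribosomal protein genes 17 rose and none fell, with a median of 0.10 (-0.70 on that scale). The share of rises, 31.5%, was near the 32.7% of all named genes. RPL22 read 14.71, 14.65 and 14.75 in N and 15.31, 15.09 and 15.20 in N epi, a change of 0.49 (SE 0.09, adjusted p = 0.00018), and 1 of its other probe sets did not pass (0.11, adjusted p = 0.17). RPS27L, a paralog of RPS27, read 12.33, 12.17 and 12.38 in N and 13.07, 12.99 and 13.06 in N epi, a change of 0.75 (SE 0.08, adjusted p = 2.2e-06). Both turned negative on the scale of the spiked controls, at -0.30 and -0.05 (adjusted p = 0.37 and 0.90). Of 19 genes of glycolysis, the glucose transporter gene SLC2A1 and PDK1 included, 11 rose and 2 fell, with a median of 0.21 (-0.58 on that scale). ENO2, a neuronal form of enolase, read 9.84, 9.79 and 10.03 in N and 10.76, 10.69 and 10.94 in N epi, a change of 0.91 (SE 0.11, adjusted p = 4.3e-06), or 0.11 (adjusted p = 0.76) on that scale. Of 9 genes listed with the metallothioneins 5 rose and 2 fell, with a median of 0.27 (-0.53 on that scale). The 2 that fell are no metallothioneins but their transcription factor MTF1 (-0.45) and the zinc exporter SLC30A1 (-1.95).

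Ribosome biogenesis genes split, with 10 of 20 rising, 7 falling and a median of 0.32 (-0.48 on the scale of the spiked controls). Their shares were 50% and 35%, against 32.7% and 37.5% of all named genes. RRP9 and PES1 act in rRNA processing. RRP9 read 7.46, 7.55 and 7.40 in N and 9.15, 8.92 and 8.89 in N epi, a change of 1.52 (SE 0.14, adjusted p = 4.2e-07). PES1 read 8.68, 8.65 and 8.48 in N and 9.86, 9.79 and 9.74 in N epi, a change of 1.19 (SE 0.10, adjusted p = 1.8e-07), or 0.40 (adjusted p = 0.24) on that scale. RRS1, an assembly factor, read 9.51, 9.27 and 8.70 in N and 6.98, 6.83 and 6.20 in N epi, a change of -2.49 (SE 0.33, adjusted p = 9.9e-06). POLR1B, a core subunit of RNA polymerase I, read 8.82, 8.94 and 8.72 in N and 7.38, 7.55 and 7.32 in N epi, a change of -1.41 (SE 0.11, adjusted p = 8.6e-08), and 1 of its other probe sets did not pass (-0.24, adjusted p = 0.21). Of 9 tested luminal markers 6 fell and 2 rose. ESR1, the estrogen receptor gene and one of the rises, was under the presence threshold on the 3 N arrays and on N epi array 2. GATA3 fell with 8.79, 8.56 and 8.70 in N and 4.71, 5.91 and 5.77 in N epi, a change of -3.22 (SE 0.34, adjusted p = 1.2e-06), and the keratin gene KRT19 with 13.49, 13.12 and 13.55 in N and 11.01, 11.06 and 10.75 in N epi, a change of -2.44 (SE 0.17, adjusted p = 1.7e-08).

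The effect of epirubicin at 20% oxygen was compared with that at 1% oxygen by the difference of both effects, (H epi - H) - (N epi - N). Of 11097 named genes 1435 (12.9%) passed, 790 with a positive (7.12%) and 645 with a negative difference (5.81%). Of 23659 probe sets 2844 passed, 7.01% with a positive and 5.01% with a negative difference, and 807 passed with arrays 1 and 2 alone. Among the hypoxia response genes, in 22 of 25 the difference was negative, in 1 it was positive, and the median effect was -0.25 in normoxia and -2.73 in hypoxia. Of 19 glycolysis genes 14 were negative, with medians of 0.21 and -0.25. Neither the 14 MAP kinase phosphatase and Sprouty genes, with medians of -3.62 and -6.31, nor the 23 RNA polymerase II and P-TEFb genes, with -0.64 and -0.64, had a member past this test. In the first of these lists the N epi arrays differed widely, with median differences from N of -5.02, -1.21 and -4.85. The missing calls there do not show equal effects.

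TMEM45A was higher with epirubicin in normoxia and lower in hypoxia, by 2.76 and -3.44, a difference of -6.20 (adjusted p = 7.8e-07). Each effect is taken against untreated cells at its own oxygen level. The paper reports that hypoxia raised TMEM45A mRNA without epirubicin but not in its presence. Opposite signs here therefore do not mean opposite levels under the drug. CXCR4, a chemokine receptor gene, read 5.67, 5.41 and 5.28 in N and 6.37, 8.05 and 5.92 in N epi (log2 change 1.33, SE 0.43, adjusted p = 0.014, or 0.70 with adjusted p = 0.069 without N epi array 2, and 0.53 with adjusted p = 0.25 on the scale of the spiked controls), against -2.84 in hypoxia, a difference of -4.17 (adjusted p = 0.0006). PDK1 and ENO2 rose in normoxia on the deposited scale and had effects of -1.41 and -1.25 in hypoxia (differences -2.85 and -2.16). HIF1A moved the other way, by -0.62 in normoxia and 1.28 in hypoxia, a difference of 1.90 (adjusted p = 6.4e-05). TFRC rose by 1.37 and 4.40, a difference of 3.02 (adjusted p = 2.4e-05). CDKN1A fell less in normoxia, with -1.0 against -2.42 (difference -1.42, adjusted p = 0.019).

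**Figure D5:**
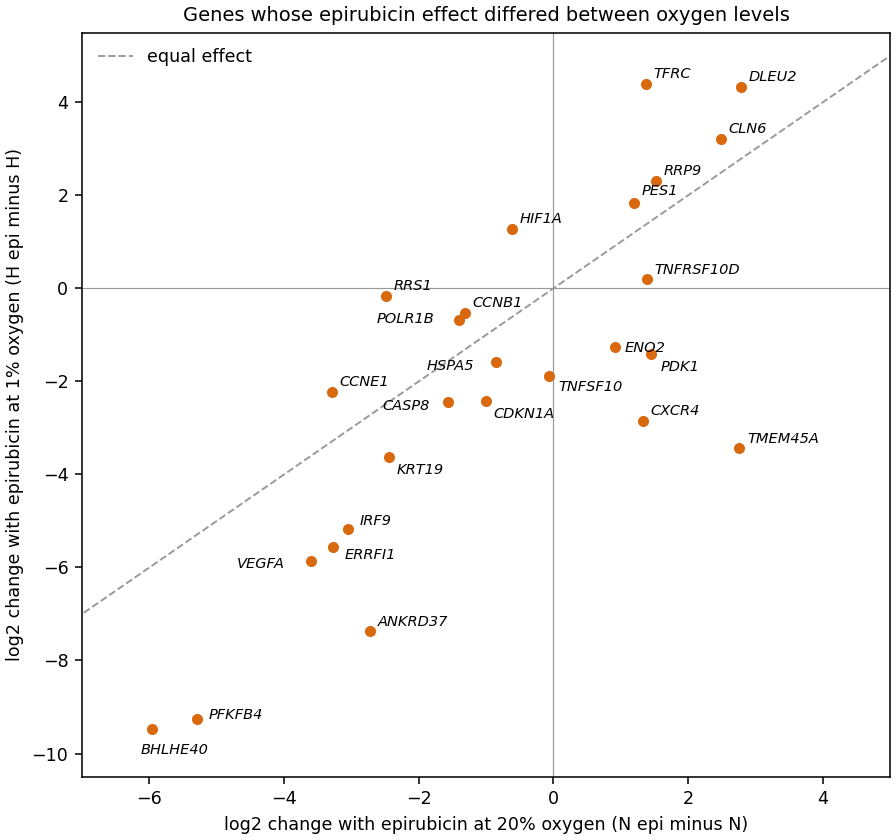
Log2 change with epirubicin at 1% oxygen (vertical axis, H epi minus H) against that at 20% oxygen (horizontal axis, N epi minus N) for the 26 named genes whose difference of effects passed an adjusted p under 0.05. Genes under the dashed line of equal effect, such as TMEM45A, CXCR4 and PFKFB4, had a lower effect in hypoxia, and TFRC, HIF1A and RRS1 a higher one.

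Epirubicin was set against paclitaxel in normoxia by the direct difference N epi minus N tax, since both drug effects share the N arrays. Of 11097 named genes 8310 (74.9%) passed, 4054 higher (36.5%) and 4256 lower (38.4%) in N epi, and of 23659 probe sets 17278 (73.0%), 36.7% higher and 36.3% lower. Of 22 genes of the integrated stress response 20 were lower in N epi than in N tax and none higher, with median effects of 0.05 for epirubicin and 1.84 for paclitaxel. Of 24 immediate early genes 22 were lower, with medians of -3.01 and 0.91, and of 14 MAP kinase phosphatase and Sprouty genes 11 were lower, with -3.62 and -0.05. Of 339 ZNF genes 251 were lower and 24 higher, with -1.34 and 0.21. The opposite held for 67 of 69 respiratory chain genes, with 0.40 and -0.28, and for 24 of 33 replication genes, with 0.08 and -1.47. TRIB3, CHAC1 and HMOX1 changed by 2.52, 3.22 and 2.55 with paclitaxel, against -3.39, -2.47 and -1.79 with epirubicin, and the direct differences were -5.91, -5.69 and -4.34 (adjusted p = 1.9e-07, 8.6e-08 and 2.9e-09). GDF15 and FOS, which did not pass with epirubicin, changed by 4.46 and 2.90 with paclitaxel, and the direct differences were -4.34 and -2.86 (adjusted p = 0.00034 and 0.00041).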

How the data were processed

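Total RNA of MDA-MB-231 cells was spiked with bacterial control transcripts, amplified to biotinylated cRNA and hybridized to HG-U133 Plus 2.0 arrays of Affymetrix. The log2 signals that the authors deposited had been normalized by GC-RMA in R (version not given in the sources used here). Their methods name chip definitions of AffyProbeMiner, whereas the table holds standard Affymetrix probe set names. The methods describe 3 independent experiments.

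The 18 arrays were grouped by title. Control probe sets were set aside, and the filter on presence was the linear threshold of 8.84. limma 3.58.1 (R 4.3.3; lmFit and eBayes, no block) was fitted to all arrays, with two-sided tests, and p-values of the 23659 tested probe sets were adjusted by Benjamini-Hochberg with 0.05 as the limit. The script was tested on simulated data. Of 54613 probe sets, 41091 had 1 gene symbol in the platform annotation, 1801 several and 11721 were not listed. Symbols came from single-symbol probe sets, and the brightest represented each gene. An "at least" fold compares with the presence threshold. The number of arrays limits the precision.

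Named genes were the 12 largest rises and falls, up to 6 members of each list by size of change, and a fixed set. Largest changes and list members were both taken only from genes past the test whose arrays did not overlap between the conditions. The fixed set of drug targets, stress genes and cytokines was named whatever its values. The members and the gene lists were chosen with earlier results of these data known. One gene and a list built on it are not reported here. Alternatives were arrays 1 and 2 alone, grouping by source name, each array left out, 3 other scalings, other presence filters, array weights, robust variances, other probe sets and the replicate number as a block. Promoter windows are those of RefSeq on GRCh38.p14, and motifs were matched by letters. Analyses used Python 3.11.15.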

Additional observations from a re-analysis of the deposited data

Results flagged for a closer look

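For 26 of the genes named above, the effect of epirubicin differed between 1% and 20% oxygen by limma's test of the difference itself, (H epi - H) - (N epi - N), among 1435 of 11097 named genes (12.9%). Of these 26 differences, 16 were negative. The hypoxia response genes TMEM45A, ANKRD37, PFKFB4, BHLHE40, PDK1, VEGFA and ENO2 had differences of -6.20, -4.65, -3.96, -3.52, -2.85, -2.25 and -2.16. The chemokine receptor gene CXCR4 had -4.17, and ERRFI1, the EGF receptor inhibitor, -2.29. Among interferon and death receptor genes, IRF9 had -2.13, TNFSF10 -1.81, TNFRSF10D -1.20 and CASP8 -0.88. CDKN1A had -1.42, KRT19 -1.18 and HSPA5 -0.74.

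The other 10 differences were positive. TFRC had 3.02, RRS1 2.33, HIF1A 1.90 and DLEU2 1.54. The cyclin genes CCNE1 and CCNB1 had 1.07 and 0.79, and the ribosome biogenesis genes RRP9, POLR1B and PES1 0.79, 0.74 and 0.65. CLN6 had 0.74. Adjusted p ranged from 4.3e-07 for PFKFB4 and PDK1 to 0.047 for CCNE1.

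With arrays 1 and 2 alone, 12 of the 26 differences passed the test. BHLHE40, ERRFI1, VEGFA, CDKN1A, TNFRSF10D, KRT19, HSPA5, PES1, CLN6, POLR1B, RRP9, CCNB1, CCNE1 and RRS1 did not. Without N epi array 2 the differences of HSPA5 (-0.62, adjusted p = 0.053) and CLN6 (0.71, adjusted p = 0.056) did not pass, and those of BHLHE40 and VEGFA were -2.22 and -1.50. The cause was not tested.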

How the results depend on the processing

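Of 123 named genes past the test, 117 also passed with arrays 1 and 2 alone, 118 when only the 6 arrays of N and N epi were fitted, 123 with a stricter presence threshold, with quantile normalization and with trended and robust variances, 122 with array weights, 121 without a presence filter, 120 with median centring and 107 when centred on the spiked controls. FOSB, ATF3, DUSP5, CXCR4 and IL24 were lost with the 6 arrays alone, IL24 with array weights, and CXCR4 and IL24 without a presence filter. Directions turned for 2 of the 123 genes on the spiked-control scale and 1 with the grouping by source name, and for 6 of 64 genes by the choice of probe set. Leaving out each array in turn gave 14591 to 15864 called probe sets for N epi against N, 1933 to 3144 for the difference between oxygen levels and 16148 to 17067 for N epi against N tax.

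When the arrays numbered 3 were grouped by source name, 0 probe sets passed, 0 higher and 0 lower, and the share past limma's test was 0.00% in each of the lists of immediate early genes, MAP kinase phosphatases and Sprouty genes, mitosis, sterol synthesis, histone H3 enzymes, the respiratory chain and ZNF genes, with 626 of 23454 probe sets at an unadjusted p under 0.05. IL24 then changed by -0.068, and the medians of the BCL2 family, integrated stress response and hypoxia lists were -0.23, -0.70 and 0.18. This grouping puts arrays of different titles together. With arrays 1 and 2 alone, 807 probe sets differed between oxygen levels, 354 positive and 453 negative, a fit with fewer arrays.

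Centring on the spiked controls gave 553 higher and 13039 lower probe sets, and 0.00% of respiratory chain genes higher. List medians then turned to -0.12 for histones, -0.71 for replication, -0.72 for the BCL2 family, -0.76 for anthracycline handling, -0.53 for metallothioneins, -0.74 for the integrated stress response, -0.58 for glycolysis, -0.48 for ribosome biogenesis, -0.60 for the MDA-MB-231 markers, -0.70 for ribosomal proteins and -0.40 for the respiratory chain, with RPL22 at -0.30 and RPS27L at -0.046. Median centring turned the medians of the NRF2, iron and heat shock lists to 0.0096, 0.092 and 0.11, and quantile normalization that of the hypoxia list to 0.17. With all probe sets of each gene, the medians of the BCL2 family and iron lists were -0.0054 and 0.16. Other probe sets gave the opposite sign for IDI1 (1.29), TOP1 (0.53), H2AX (0.11), MDM2 (0.081), BCL2 (-1.03) and DLEU2 (-2.65 and -1.72).

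With the replicate number as a block, 16109 probe sets passed, 7929 higher and 8180 lower, 2812 differed between oxygen levels and 17340 between the drugs, and no named gene's call changed. The deviations of equally numbered N and N epi arrays from their condition means correlated at 0.15, 0.14 and 0.06, and 5 of the 6 arrays correlated best with the equally numbered one, while N epi array 3 did so with N array 1 (0.066, against 0.057). The numbers were not used as pairs. Signals near the presence threshold give only bounds.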

Other observations

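For a minority of genes, probe sets of the same gene moved in opposite directions. Of 5479 named genes with several tested probe sets, 381 had probe sets past the test in both directions, and 72 had one at least 2-fold higher and another at least 2-fold lower in N epi. The examples that follow were picked from these 72 for the widest range between probe sets. The zinc finger gene ZNF226 had probe sets at -4.13 and 1.44. KMT2A, a methyltransferase of H3K4, ranged from -4.29 to 1.19 over 7 probe sets. MLLT10, a chromatin reader, ranged from -3.27 to 2.14, and KMT5B, a methyltransferase of H4K20, from -4.28 to 1.00. HMGA2, an architectural chromatin protein, had 2 probe sets lower, at -3.11 and -1.68, and 3 higher, at 1.33, 1.37 and 1.87. USP6NL had -2.71 and 2.35, and SSH2, a cofilin phosphatase gene, -3.76 and 1.47. Where these probe sets lie in the transcripts was not analysed here.

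In both conditions the second array had the highest signal of 4 secreted factors. GDF15 read 9.0 on N array 2 against 5.56 and 5.63 on N arrays 1 and 3, CXCL8 12.17 against 6.98 and 7.22, IL6 9.09 against 6.78 and 6.89, and IL24 7.15 against 4.23 and 3.98. With epirubicin the second array read 9.08 for GDF15, 12.46 for CXCL8, 10.14 for IL6 and 9.14 for IL24, and the other arrays 5.39 and 6.06, 7.83 and 7.87, 4.50 and 4.69, and 6.22 and 6.18. XBP1, a transcription factor of secretory cells, read 9.95, 10.23 and 10.04 in N and 5.88, 9.84 and 5.74 in N epi, so that on array 2 its level stayed near that of N.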
